A study of Mus musculus with 19 samples.

Results

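Myotubes at the end of the fusion step, 72 h by the labels, were compared between libraries labelled Glud1-deficient and libraries labelled wild type (WT). The comparison rests on the 8 libraries of fused myotubes, 4 with each label, of 19 in the series; they were chosen by their titles and not by any measured value. The cells were primary myoblasts taken from mouse hind-limb muscle, the mononucleate precursors of muscle fibres, that were differentiated in culture. Both groups share that source, the stage and the library kit, and the labels give no age, sex, strain or agent for either. The remaining 11 libraries, 6 of dividing myoblasts at 24 h and 5 of differentiated myotubes at 48 h, were used in 1 alternative fit and in the comparison of stages. How Glud1 was made deficient is not given in the sources used here. The deposited file names mark both groups KO and add a T for the libraries labelled Glud1-deficient. What the T stands for is not stated, so a genotype and a treatment cannot be told apart, and these libraries are called KO-labelled throughout. Replicates are numbered as biological, with no word on separate animals or cultures, so the p-values measure the spread between these libraries.

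Glud1 encodes glutamate dehydrogenase, the mitochondrial enzyme that converts glutamate to 2-oxoglutarate and ammonia and so ties amino acid turnover to the tricarboxylic acid cycle. Mitochondrial glutamate also feeds the malate-aspartate shuttle, which carries reducing equivalents from the cytosol into mitochondria. During fusion, myoblasts that have left the cell cycle join into multinucleate myotubes under the myogenic factors, which switch on the myosins, troponins and calcium-handling proteins of the contractile apparatus.

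The 8 libraries held 16168131 to 26665077 estimated counts. Levels are given as CPM, a gene's counts relative to the TMM-scaled total of its library, and every change is KO-labelled minus WT on the log2 scale with its standard error (SE) and the adjusted p of edgeR's quasi-likelihood test. A gene is said to have risen or fallen where that p was under 0.05. The first principal component held 34.1% of the variance and separated the groups, WT at -14.8 to -12.7 and KO-labelled at 10.1 to 17.5. The cells carried the RNA of myotubes: the 12 myotube markers summed to 43177 to 46727 CPM in WT and 43657 to 45158 in KO-labelled libraries, with 1 of them higher and 3 lower (33.3%, against 15.2% of all genes); leaving out KO-labelled replicate 2 or 3 left 1 lower, with 0 and 1 higher, and 5 were lower with no filter on low counts. The 12 markers of satellite and reserve cells, of which 10 were tested and 2 were lower (20%, against 7.27% of all genes), summed to 2507 to 2749 CPM and 2337 to 2465; 1 was lower without KO-labelled replicate 2 or 3 or WT replicate 4. The lists for fibroblasts, adipocytes, endothelium, leukocytes and nerve were low. The fibroblast list summed to 7.8 to 9.62 against 6.11 to 7.67 CPM, adipocytes to 0.228 to 0.42 against 0.308 to 0.644, endothelium to 3.88 to 4.71 against 4.01 to 5.45, and leukocytes to 8.11 to 9.78 against 8.96 to 9.31. The nerve list summed to 15.3 to 16.7 against 15.1 to 19.9. Of these lists' members, 6 of 12, 7 of 8, 3 of 10, 7 of 12 and 3 of 8 held at most 3 counts in every library, among them Pdgfrb, Adipoq, Kdr, Ptprc and Sox10. The smooth muscle list summed to 613 to 676 against 654 to 695 CPM, most of it from Acta2, smooth muscle actin, which was not called, at 0.09, and is named because of its level. Egfl7 of the endothelial list and Ngfr of the nerve list rose, by 0.72 and 0.49, and Tagln of the smooth muscle list fell, at -0.78. The call was lost with the effective-length offset for Tagln and in 2 of 18 alternatives for Egfl7 and 7 of 18 alternatives for Ngfr. The part of other cells in the results was not tested. In these bulk samples, fewer cells of a type and less RNA per cell cannot be told apart.

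The level of Glud1 itself did not separate the labels. It stood at 122, 131, 126 and 121 CPM in WT and 123, 121, 127 and 121 CPM in KO-labelled libraries, with means of 125 ± 4.35 and 123 ± 3.06 CPM (SD, n = 4) and a log2 fold change of -0.019 ± 0.035 (SE; adjusted p = 0.77). An exact two-sided permutation test on the same values gave p = 0.6, where the smallest p that 4 against 4 libraries can give is 0.0286. In the shares of its transcripts the labels did separate. The full-length protein-coding transcript ENSMUST00000022322, of 13 exons, held 86.8% to 88.3% of the gene's estimated counts in WT and 92.4% to 94.2% in KO-labelled libraries, and the short transcript ENSMUST00000159784, of 6 exons, held 11%, 12.1%, 11.9% and 13.2% in WT and 4.72%, 5.81%, 6.08% and 6.6% in KO-labelled libraries. These shares are a description, with no test. The deposited TPM values, scaled for length and depth, were not tested either. For the 13-exon transcript they overlapped: WT 53.25, 53.97, 50.98 and 49.11, KO-labelled 53.08, 51.06, 55.3 and 52.78. The 6-exon transcript is annotated as a processed transcript, not as protein-coding. Its TPM values did not overlap: WT 45.8, 51.13, 47.8 and 51.64, KO-labelled 18.37, 21.98, 24.67 and 25.83. A share assigned by kallisto between transcripts that overlap is not a count of molecules of each. The effective-length offset, an alternative fit that scales a gene's counts by the mean length of the transcripts assigned to it, gave Glud1 -0.337 with edgeR's adjusted p = 0.000537, a fall, while over all 18 alternatives the adjusted p ran from 0.000537 to 0.998. The check on the summed level of the targeted gene therefore depends on this choice, while its 13-exon coding transcript overlapped in TPM. The direction of each change below rests on the labels.

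Of 12677 genes tested, 1928 changed, 15.2% of all, 1007 of them higher (7.94%) and 921 lower (7.27%) in KO-labelled libraries. Most changes were small: 1668 of the 1928 were under 1.5-fold, and the median size over the 1928 was 0.23 on the log2 scale. At least 2-fold were 80 genes, 0.631% of all, 30 higher and 50 lower. The groups did not overlap in 2315 genes (18.3%). The median over all genes tested was -0.002. With the effective-length offset, 701 genes were called, 658 of them among the 1928. Leaving out KO-labelled replicate 2 left 1247 calls, 566 of them lower against 921, and leaving out WT replicate 1 left 609 lower.

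Among genes with an assigned symbol and at least 1 CPM in the group where they are higher, 6 of the 12 largest falls were in the guanylate-binding proteins, interferon-inducible GTPases that act against intracellular pathogens. In mouse, they are encoded in clusters on chromosomes 5 and 3. All 6 genes tested, of 11 in the family, fell (100%, against 7.27% of all genes lower), with a median of -4.057 against -0.002 over all genes. Together the family's 11 members summed to 1026 to 1116 CPM in WT and 73.9 to 76.8 in KO-labelled libraries. Gbp6, at chromosome 5, 105270702 to 105293698, was the most abundant, at 721, 744, 694 and 733 CPM in WT and 36.6, 36.4, 37.5 and 33.9 CPM in KO-labelled libraries. It gave a log2 fold change of -4.32 ± 0.042 (SE; adjusted p = 3.17e-22). Every KO-labelled library lay far below the lowest WT library, and the libraries of each group were close to one another; groups that do not overlap were a condition for naming the 12 largest rises and falls. Gbp11, Dbh, Greb1 and Sost among the falls, and Sap30bpos, Tvp23a, Flrt1, Dynlt1c, Tnr and Wnt10a among the rises, had means under 1 CPM in the other group and passed that floor only through the group where they are high. Gbp9 stood at 248, 247, 246 and 283 CPM in WT and 32.3, 33.6, 32 and 34.8 CPM in KO-labelled libraries, a log2 fold change of -2.95 ± 0.05 (SE; adjusted p = 3.71e-18). Gbp10 was at 37.4, 41.2, 36.2 and 34.5 CPM in WT and 1.82, 2.47, 3.06 and 1.73 CPM in KO-labelled libraries, a log2 fold change of -3.98 ± 0.11 (SE; adjusted p = 6.26e-15). Gbp4 was at 33.5, 34.2, 33.4 and 42.2 CPM in WT and 1.93, 2.11, 2.27 and 1.73 CPM in KO-labelled libraries, a log2 fold change of -4.14 ± 0.11 (SE; adjusted p = 6.26e-15). Gbp8 was at 16.5, 15.9, 16.7 and 21.2 CPM in WT and 1.23, 1.39, 1.68 and 1.67 CPM in KO-labelled libraries, a log2 fold change of -3.55 ± 0.13 (SE; adjusted p = 1.15e-12). Gbp11 had 0 to 2 counts in each KO-labelled library, 4 in all against 99 in WT, a WT-to-KO-labelled ratio of 23 (95% exact interval for counting error only, 8.7 to 86). DESeq2 gave it no adjusted p.

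The chromosome 3 members were barely detected. Gbp2, Gbp2b, Gbp3, Gbp5 and Gbp7 were not tested, since their levels were at most 0.234 CPM in any library. Gbp4, Gbp8 and Gbp9 overlap on the same strand, and Gm43302 overlaps both Gbp6 and Gbp10 on theirs. Members of the family are near copies, so counts can be shared among them. The values of single members are uncertain for that reason. Within 1 Mb of the cluster, 11 other genes were tested, 7 were lower (against 7.27% of all genes) and 0 higher: Spp1, Pkd2, BC005561, D930016D06Rik, Zfp951, Gm43302 and Lrrc8b. Spp1, which encodes osteopontin, a secreted phosphoprotein, stood at 177, 189, 168 and 152 CPM in WT and 115, 114, 112 and 108 CPM in KO-labelled libraries, a log2 fold change of -0.61 ± 0.051 (SE; adjusted p = 1.6e-07). Lrrc8b, a subunit of the volume-regulated anion channel, was at 13, 13, 12.8 and 14.4 CPM in WT and 5.27, 7.04, 5.99 and 5.43 CPM in KO-labelled libraries, a log2 fold change of -1.16 ± 0.09 (SE; adjusted p = 5.43e-08); of the other subunits, Lrrc8a, Lrrc8d and Lrrc8e were not called, at -0.15, -0.05 and -0.25, and Lrrc8c, at 0.504 to 1.03 CPM in WT and 0.124 to 0.527 in KO-labelled libraries, was too low to test; in the 9 alternatives that tested it, it was called lower in 9, at -1.98 to -1.35. Significance was lost in 6 of 18 alternatives for Pkd2, 5 of 18 alternatives for Zfp951 and 9 of 18 alternatives for Gm43302. Within 1 Mb of Glud1 on chromosome 14 (34310727 to 34345265) 10 other genes were tested and 1 of them, Wapl, was lower, at -0.16, a share near that of all genes. The threshold was missed in 4 of 18 alternatives for Wapl.

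Genes of the antigen peptide transporter fell. Tap2, which encodes a subunit of the peptide transporter of class I antigen presentation, is at chromosome 17, 34203527 to 34216321. It stood at 59.8, 56.8, 59.8 and 61.5 CPM in WT and 25.5, 23.8, 22.6 and 25.7 CPM in KO-labelled libraries, and gave a log2 fold change of -1.29 ± 0.048 (SE; adjusted p = 1.16e-12). The groups did not overlap. Its partner Tap1 stood at 3.28, 2.94, 3.25 and 3.39 CPM in WT and 2.75, 1.75, 2.12 and 1.48 CPM in KO-labelled libraries, a log2 fold change of -0.67 ± 0.16 (SE; adjusted p = 0.00976). Of the 40 interferon signalling and response genes tested of 72 listed, 4 were higher and 6 lower (25%, against 15.2% of all genes), with a median of -0.011. The other 4 that fell were Irgm1, an immunity-related GTPase, Socs3, a feedback inhibitor of cytokine receptors, Irf2 and Stat3, at -0.38, -0.60, -0.27 and -0.19. Dhx58, an RNA helicase that tunes antiviral sensing, rose by 1.04, and Ifngr2, a chain of the interferon gamma receptor, by 0.23. In the offset fit 1 gene of this list was higher and 1 lower. Tap1, Irgm1, Socs3 and Irf2 were chosen after their values were seen. Calls were lost with the effective-length offset for Tap1, Irgm1, Stat3 and Dhx58 and in 3 of 18 alternatives for Socs3 and 7 of 18 alternatives for Irf2.

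Greb1 and Pgr, both known as estrogen targets, fell. Greb1, a gene named for growth regulation by estrogen in breast cancer, stood at 3.99, 4.46, 3.7 and 4.95 CPM in WT and 0.351, 0.668, 0.588 and 0.741 CPM in KO-labelled libraries, a log2 fold change of -2.86 ± 0.19 (SE; adjusted p = 9.4e-09). Pgr, the progesterone receptor, held 74 counts over the 4 WT libraries and 7 over the KO-labelled, a WT-to-KO-labelled ratio of 9.82 (95% exact interval for counting error only, 4.53 to 25.3). Esr1, the estrogen receptor alpha, moved the other way, at 17.4, 17.8, 16.9 and 18.2 CPM in WT and 23.8, 23, 21.6 and 22.2 CPM in KO-labelled libraries, a log2 fold change of 0.36 ± 0.054 (SE; adjusted p = 0.000145). Of 18 steroid receptor and estrogen target genes tested, 5 were higher and 3 lower (44.4%, against 15.2% of all genes; 3 and 2 with the effective-length offset), with a median of -0.002; Esrrb, an estrogen-related receptor, was the other that fell, at -0.50. With the effective-length offset the change of Greb1 shrank to -0.97 and was not called (edgeR adjusted p = 0.0722), so the size of its fall depends on that choice.

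The promoters of 10 of the genes described so far were searched for 2 motifs, those of the interferon and estrogen responses. RefSeq tables of mouse promoters (GRCm38.p6, 250 bases before to 50 after a start) held 3 of the 10, Greb1 with 2 starts, Pgr and Tap1. The searched letters were GAAANNGAAA, the core of the interferon-stimulated response element, and GGTCANNNTGACC, the estrogen response element, on both strands, with matches of the same motif allowed to overlap. Over the 32851 promoters, the former is in 1131 (3.44%) and the latter in 23 (0.07%), and no match lies in the windows of these 3 genes. The window of Pgr, at chr9:8899583-8899882 on the plus strand, is printed since the gene was near the floor in KO-labelled libraries; no letters are in capitals because none matched.
Pgr: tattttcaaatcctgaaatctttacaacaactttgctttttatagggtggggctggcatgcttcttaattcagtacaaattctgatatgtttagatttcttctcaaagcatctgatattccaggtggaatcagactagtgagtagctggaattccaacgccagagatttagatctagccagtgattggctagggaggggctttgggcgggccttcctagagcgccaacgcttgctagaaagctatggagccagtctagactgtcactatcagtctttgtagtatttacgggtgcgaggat

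Among the other large falls, Dbh, dopamine beta-hydroxylase, which makes noradrenaline, stood at 5.97, 4.99, 6.84 and 6.32 CPM in WT and 0.0586, 0.565, 0.313 and 0.371 CPM in KO-labelled libraries, a log2 fold change of -4.16 ± 0.24 (SE; adjusted p = 1.06e-09). Sost, which encodes sclerostin, an inhibitor of Wnt signalling, was at 3.4, 2.82, 3.25 and 3.73 CPM in WT and 0.468, 0.874, 0.47 and 0.494 CPM in KO-labelled libraries, a log2 fold change of -2.52 ± 0.21 (SE; adjusted p = 1.38e-07). Htra3, a secreted serine protease, was at 21.5, 20.4, 22.7 and 26.8 CPM in WT and 4.98, 3.8, 4.58 and 5.19 CPM in KO-labelled libraries, a log2 fold change of -2.32 ± 0.1 (SE; adjusted p = 1.59e-11). Acot4, an acyl-CoA thioesterase of peroxisomes, was at 6.64, 5.81, 6.32 and 6.97 CPM in WT and 1.76, 2.06, 1.92 and 2.1 CPM in KO-labelled libraries, a log2 fold change of -1.72 ± 0.12 (SE; adjusted p = 1.11e-08). Gcat, the threonine-breakdown enzyme, is uncertain: the annotation holds 2 overlapping genes of this symbol, and the other stood at 16.2 CPM in WT and 16.0 in KO-labelled libraries, so its values of 5.46, 3.7, 3.59 and 3.08 CPM in WT and 2.05, 0.617, 0.98 and 0.618 CPM in KO-labelled libraries are uncertain. Alox5, arachidonate 5-lipoxygenase, was at 99.9, 104, 112 and 111 CPM in WT and 65.6, 66.6, 66.7 and 63.4 CPM in KO-labelled libraries, a log2 fold change of -0.70 ± 0.04 (SE; adjusted p = 1.06e-09).

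The 12 largest rises under the same conditions, 1.14 to 1.38, were smaller than the 12 largest falls. Sohlh2, a basic helix-loop-helix factor known from germ cells, stood at 14.2, 15.5, 15 and 13.9 CPM in WT and 35.1, 35.4, 33.5 and 33.3 CPM in KO-labelled libraries, a log2 fold change of 1.23 ± 0.053 (SE; adjusted p = 9.41e-12). Cilp2, a matrix protein of cartilage, was at 6.26, 6.4, 6.44 and 6.09 CPM in WT and 16.1, 13.7, 16.2 and 14.8 CPM in KO-labelled libraries, a log2 fold change of 1.28 ± 0.078 (SE; adjusted p = 2.03e-09). Nfib, a transcription factor of the nuclear factor I family, was at 2.9, 2.35, 2.56 and 1.94 CPM in WT and 6.44, 6.22, 5.45 and 6.55 CPM in KO-labelled libraries, a log2 fold change of 1.33 ± 0.13 (SE; adjusted p = 1.09e-06). Nrep, a neuronal regeneration protein, was at 4.75, 4.23, 5.58 and 3.35 CPM in WT and 8.84, 10.8, 11.2 and 10.4 CPM in KO-labelled libraries, a log2 fold change of 1.24 ± 0.12 (SE; adjusted p = 1.44e-06). Zfp385c, a zinc finger gene, stood at 1.98, 1.76, 2.11 and 1.64 CPM in WT and 4.39, 6.07, 4.11 and 3.95 CPM in KO-labelled libraries, a log2 fold change of 1.31 ± 0.16 (SE; adjusted p = 1.71e-05). Sln, described with the calcium genes, was also among the 12. The other 6 were at most 2.16 CPM in every library: Tnr, tenascin R of the neural matrix, Tvp23a, Flrt1, Wnt10a, Sap30bpos and Dynlt1c, at 1.15, 1.31, 1.27, 1.14, 1.38 and 1.22. Zfp385c, Tvp23a, Flrt1 and Sap30bpos overlap a gene on the other strand, Nkiras2, Nubp1, Macrod1 and Sap30bp, at 119.7, 26.1, 80.1 and 44.1 CPM on average; use of strand is not given in the sources used here, so these 4 are uncertain. Among abundant genes that rose at least 1.5-fold, Fxyd1, which modulates the sodium pump, stood at 11.1, 12.4, 13.9 and 10.7 CPM in WT and 19.6, 19.4, 18.3 and 18.2 CPM in KO-labelled libraries, a log2 fold change of 0.67 ± 0.075 (SE; adjusted p = 6.74e-06), and Peg10, an imprinted gene of retrotransposon origin, at 192, 192, 187 and 169 CPM in WT and 276, 289.9, 288 and 289 CPM in KO-labelled libraries, a log2 fold change of 0.63 ± 0.04 (SE; adjusted p = 3.68e-09). The change of Nfib was 0.72 with the effective-length offset (edgeR adjusted p = 0.186). The call was lost with the effective-length offset for Tnr and Dynlt1c.

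**Figure D1:**
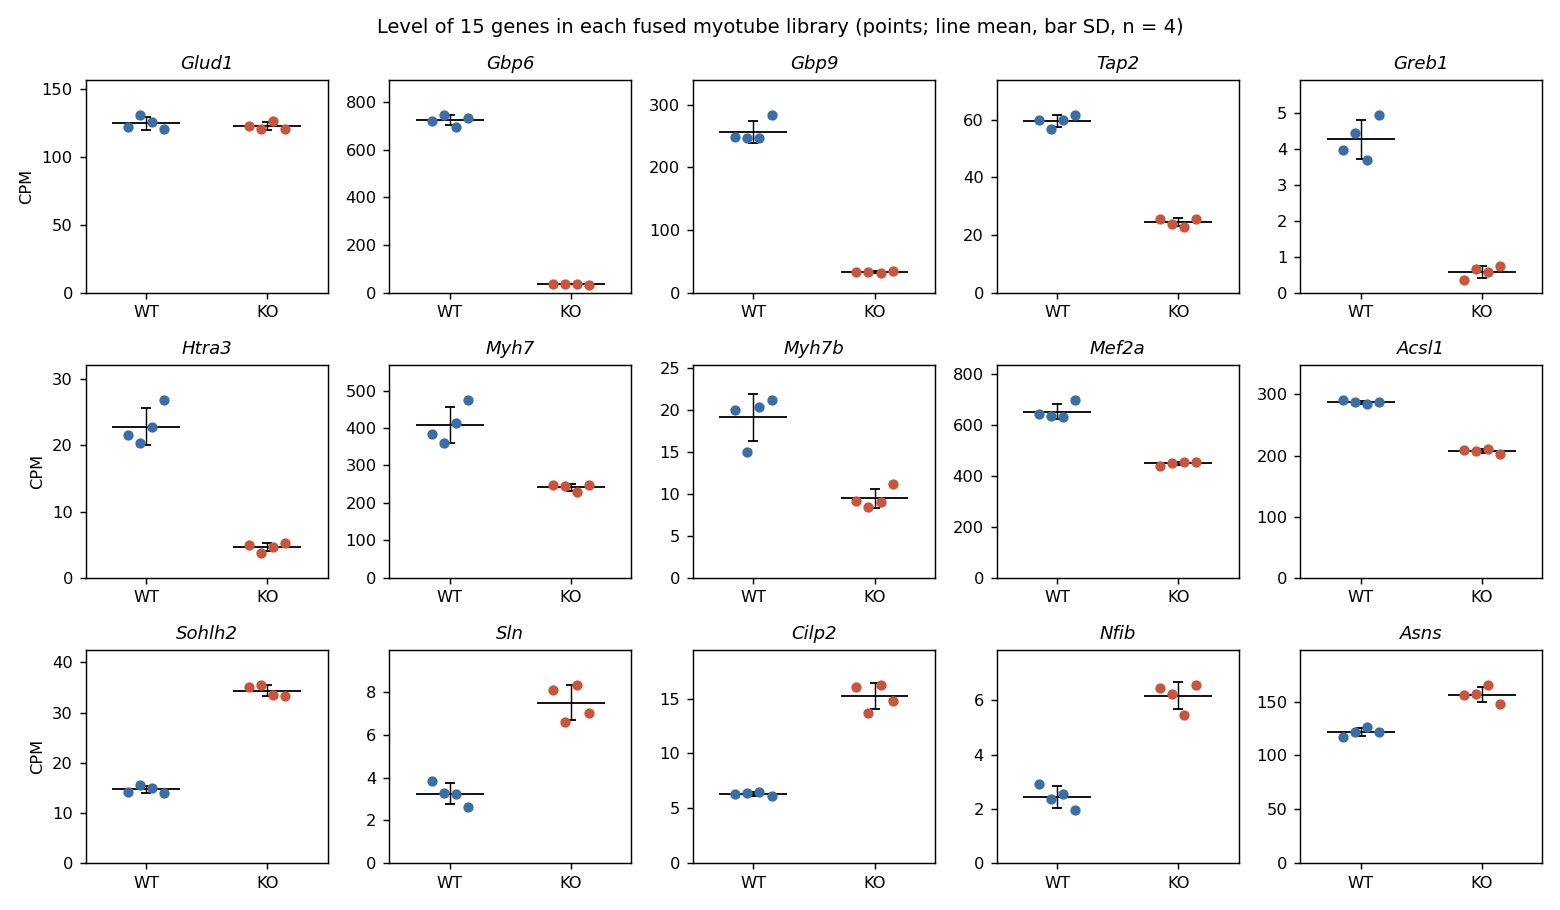
CPM of 15 genes in each library of fused myotubes, WT and KO-labelled (KO), 4 points each, with the mean as a line and the SD as a bar, on axes that start at 0. Glud1 overlaps between the groups, from 121 to 131 CPM in WT and 121 to 127 in KO-labelled libraries, while the other 14 genes do not; for Gbp6, Gbp9, Greb1, Htra3, Sohlh2, Sln, Cilp2 and Nfib, that was a condition of their choice.

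Heavy chains known from slow and cardiac muscle fell. Myh7, the slow and cardiac beta myosin heavy chain, stood at 385, 360.3, 414 and 474 CPM in WT and 248, 245, 228 and 248 CPM in KO-labelled libraries, a log2 fold change of -0.76 ± 0.061 (SE; adjusted p = 9.53e-08). Myh7b, a related slow-type chain, was at 20, 14.9, 20.3 and 21.1 CPM in WT and 9.19, 8.43, 9.01 and 11.1 CPM in KO-labelled libraries, a log2 fold change of -1.03 ± 0.1 (SE; adjusted p = 1.1e-06), though it overlaps Trpc4ap on the other strand, at 166 CPM. Myh6, the cardiac alpha chain and a neighbour and near copy of Myh7, was at 3.7, 3.52, 2.96 and 3.24 CPM in WT and 1.35, 1.7, 1.33 and 1.36 CPM in KO-labelled libraries, a log2 fold change of -1.23 ± 0.15 (SE; adjusted p = 2.18e-05). Of the 18 genes tested on the list of myosins, myosin-binding proteins and a myosin kinase, 6 were higher and 6 lower (66.7%, against 15.2% of all genes), with a median of -0.054, or -0.028 without KO-labelled replicate 1 and -0.029 without WT replicate 1 or once trends with length and GC content were removed. The rises, in Myh2, Myh8 and the light chains Myl1, Myl4, Myl6b and Mylpf, were at most 0.18. Mybpc1 and Mybpc2, the slow and fast myosin-binding proteins C, fell, at -0.25 and -0.22, as did Myh3, the embryonic myosin and the second most abundant heavy chain, at -0.15. Myh1, the fast 2X chain and the most abundant, was not called, at -0.06. With the effective-length offset, 1 of the list was higher and 5 were lower. They numbered 3 higher in the fit of 19 libraries and once trends with length and GC content were removed. The rises dropped to 1 without KO-labelled replicate 1, 2 or 3 or WT replicate 1 and to 2 without WT replicate 2. Significance was lost with the effective-length offset for Myh6 and in 3 of 18 alternatives for Myh3, 6 of 18 alternatives for Myh2, 3 of 18 alternatives for Myh8, 8 of 18 alternatives for Myl1, 10 of 18 alternatives for Myl4, 7 of 18 alternatives for Myl6b and 7 of 18 alternatives for Mylpf.

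Each of these 3 heavy chain genes, as annotated in GENCODE M21, carries a microRNA in an intron on its own strand. The microRNAs are placed as in the RefSeq annotation of GRCm38.p6. They are shown because the 3 host genes fell together and the microRNAs fall into 2 seed groups (bases 2 to 8, in capitals, the part that pairs with targets), one shared by the 208a and 208b forms and the other of the 499 form. An mRNA kit does not measure mature microRNAs, so only the host genes have values. The first lies in Myh6 at chr14:54949072-54949093, the next in Myh7 at chr14:54975710-54975731, both on the minus strand, and the last in Myh7b at chr2:155622893-155622913 on the plus strand.
mmu-miR-208a-3p: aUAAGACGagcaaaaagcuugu
mmu-miR-208b-3p: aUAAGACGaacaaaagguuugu
mmu-miR-499-5p: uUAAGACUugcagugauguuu

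Other sarcomere genes split evenly, 9 higher and 9 lower of 45 tested (40%, against 15.2% of all genes), with a median of -0.0. Those that fell included Tpm3, the slow tropomyosin, Tnnt1, the slow troponin T, Myom2, an M-band protein, Neb, nebulin of the thin filament, and Tmod4, which caps thin filaments, at -0.41, -0.29, -0.39, -0.49 and -0.59. Tcap, a titin-binding protein of the Z disc, rose by 0.36. Tmod4 was chosen after its values were seen. In the offset fit 5 rose and 5 fell; the falls numbered 4 once WT replicate 1 was left out and 5 once KO-labelled replicate 2 or 3 was. Of 33 calcium handling genes, 8 rose and 7 fell (45.5%, against 15.2%), with a median of 0.053; leaving out 1 library gave 5 to 8 rises and 3 to 7 falls, with 5 and 3 without KO-labelled replicate 1 or 2, 6 and 4 without KO-labelled replicate 3, and 7 and 3 without WT replicate 1. The offset fit called 4 each way. Sln encodes sarcolipin, an inhibitor of the calcium pump of the sarcoplasmic reticulum, and stood at 3.82, 3.29, 3.25 and 2.63 CPM in WT and 8.08, 6.58, 8.31 and 7.04 CPM in KO-labelled libraries, a log2 fold change of 1.22 ± 0.12 (SE; adjusted p = 1.56e-06). Mrln, myoregulin, another inhibitor of that pump, moved the other way, at 7.44, 9.04, 9 and 9.02 CPM in WT and 5.91, 4.73, 4.66 and 5.74 CPM in KO-labelled libraries, a log2 fold change of -0.72 ± 0.1 (SE; adjusted p = 0.000115). The slow pump Atp2a2 fell, at 1681, 1685, 1625 and 1591 CPM in WT and 1417, 1421, 1439.7 and 1429 CPM in KO-labelled libraries, a log2 fold change of -0.21 ± 0.033 (SE; adjusted p = 0.000336). The threshold was missed in 5 of 18 alternatives for Tmod4.

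Of 22 transcription factors of the muscle programme tested, 2 were higher and 3 lower (22.7%, against 15.2%), with a median of -0.007; 1 was higher with the effective-length offset. Mef2a, a MADS-box factor of late differentiation, stood at 642, 634, 631 and 695 CPM in WT and 439, 449.7, 452 and 453 CPM in KO-labelled libraries, a log2 fold change of -0.54 ± 0.036 (SE; adjusted p = 6.9e-09), whereas its relative Mef2c rose by 0.17 and Mef2d was not called, at 0.0017. Myf6, the myogenic factor of mature fibres, was at 129.8, 135, 128 and 125 CPM in WT and 97.4, 99.8, 93 and 89.7 CPM in KO-labelled libraries, a log2 fold change of -0.44 ± 0.039 (SE; adjusted p = 2.59e-07). Myf5, the early myogenic factor, was at 115, 119, 119 and 109 CPM in WT and 92.6, 94.1, 92.3 and 92.7 CPM in KO-labelled libraries, a log2 fold change of -0.31 ± 0.035 (SE; adjusted p = 6.85e-06). The 2 central factors were not called: Myod1 at 0.11 (adjusted p = 0.0947) and Myog at -0.0032 (adjusted p = 0.974). Among fusion genes, Mymk, myomaker, was at -0.0017 and Mymx, myomixer, at 0.14, neither called, while 4 of 16 tested rose and 0 fell (25%, against 7.94% of all genes higher, with a median of 0.047), Jam2, Cdon, Cd81 and Cav3, by 0.28, 0.17, 0.18 and 0.15. In this list 1 gene was lower with no filter on low counts and without KO-labelled replicate 4 or WT replicate 2, and the median was 0.023 with the effective-length offset, 0.026 once trends with length and GC content were removed and 0.025 without KO-labelled replicate 1. Calls were lost in 7 of 18 alternatives for Cav3.

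Most enzymes around the targeted one did not pass the test. Of 22 enzymes of glutamate and proline tested, 4 rose and 2 fell (27.3%, against 15.2%), with a median of -0.005. Asns, which makes asparagine from aspartate and glutamine, stood at 117, 122, 126 and 122 CPM in WT and 156, 157, 165 and 148 CPM in KO-labelled libraries, a log2 fold change of 0.36 ± 0.037 (SE; adjusted p = 2.07e-06). Psat1, which uses glutamate in serine synthesis, was at 220.4, 238, 232 and 247 CPM in WT and 309.5, 309, 307 and 284 CPM in KO-labelled libraries, a log2 fold change of 0.37 ± 0.039 (SE; adjusted p = 3.74e-06). Bcat1, the cytosolic branched-chain aminotransferase, was at 3.32, 4.17, 3.02 and 2.32 CPM in WT and 0.937, 1.18, 1.29 and 0.803 CPM in KO-labelled libraries, a log2 fold change of -1.54 ± 0.21 (SE; adjusted p = 5.46e-05), while its mitochondrial partner Bcat2 rose by 0.14. Glul, glutamine synthetase, and Got2, Gpt and Gpt2, transaminases that share glutamate with Glud1, were not called, at -0.022, 0.033, -0.021 and -0.045. Of the 10 genes of the malate-aspartate and glycerol phosphate shuttles, Got1 and Gpd1 fell (20%, against 7.27% of all genes lower), at -0.12 and -0.24, with 0 higher and a median of -0.0. In the shuttle list 0 fell with the effective-length offset or without KO-labelled replicate 1 or 2 or WT replicate 3. Without WT replicate 1 or 2, 1 fell. The offset fit left 2 rises in the glutamate list, and 1 fall remained without KO-labelled replicate 1 or 2 or WT replicate 2 or 3. Of 12 amino acid carriers, 1 fell (8.33%), Slc7a11, the cystine-glutamate exchanger, at -0.81. The call was lost with the effective-length offset for Slc7a11 and in 11 of 18 alternatives for Bcat2, 5 of 18 alternatives for Got1 and 5 of 18 alternatives for Gpd1.

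Targets of ATF4, the factor of the amino acid response, moved in both directions. Of 28 tested, 8 rose and 6 fell (50%, against 15.2%), with a median of 0.011. Those that rose included Mthfd2, of mitochondrial folate, by 0.42, Atf5 by 0.43 and Phgdh, the first enzyme of serine synthesis, by 0.17, beside Asns and Psat1. Trib3, Gdf15, Sesn2 and Ddit3 fell, at -0.62, -0.48, -0.27 and -0.25. These 4, and Phgdh, were chosen after their values were seen. Atf5 and Ddit3 overlap Nup62 and Mars on the other strand, at 82.2 and 129 CPM on average, so their values are uncertain. The chaperones of the endoplasmic reticulum Hspa5 and Hsp90b1 fell as well, at -0.41 and -0.27. The offset fit called 5 of the list higher and 1 lower, and without WT replicate 1, 3 were lower. Significance was lost in 3 of 18 alternatives for Phgdh, 10 of 18 alternatives for Gdf15, 2 of 18 alternatives for Sesn2 and 5 of 18 alternatives for Ddit3.

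In the respiratory chain, 24 genes rose and 0 fell, while 59 nuclear and 7 mitochondrial genes were not called. Of 77 nuclear genes tested, 18 rose and 0 fell (18 of 77 is 23.4%, against 7.94% of all genes higher), with a median of 0.085, and of 13 proteins encoded in mitochondrial DNA, 6 rose and 0 fell (46.2%, against 7.94% higher), with a median of 0.193. The log2 fold change was above 0 in 75 of the 77 and 10 of the 13. The groups did not overlap in 10 of the 77 and 2 of the 13, against 18.3% of all genes. The mitochondrial list summed to 29612 to 35909 CPM for WT, and the KO-labelled sums, 30046 to 35228, lay inside that range. The nuclear sums overlapped in part, 25039 to 26756 against 26101 to 28000.2. Removing trends with length and GC content took the nuclear median to 0.027 and the mitochondrial to 0.103, and leaving out WT replicate 2 took the latter to 0.08. In the mitochondrial list 1 gene was lower once those trends were removed and without KO-labelled replicate 4 or WT replicate 1, and 2 were with no filter on low counts. Cox6a2, a muscle subunit of cytochrome oxidase, was at 243, 239.8, 268 and 231 CPM in WT and 304, 299, 281 and 275 CPM in KO-labelled libraries, a log2 fold change of 0.24 ± 0.044 (SE; adjusted p = 0.00112), and mt-Nd3, a subunit of complex I, was at 281, 301, 271 and 296 CPM in WT and 345, 377, 395 and 363 CPM in KO-labelled libraries, a log2 fold change of 0.37 ± 0.043 (SE; adjusted p = 1.04e-05). With the effective-length offset 1 of the nuclear genes and 3 of the mitochondrial ones were called, all higher. The nuclear count was 7 once trends with length and GC content were removed and 11 in the fit of 19 libraries, and the mitochondrial count was 3 in DESeq2's test. The nuclear count dropped to 3 without KO-labelled replicate 1 or WT replicate 1, to 2 without KO-labelled replicate 2, to 9 without KO-labelled replicate 3 and to 8 without WT replicate 4, and the mitochondrial count to 3 without KO-labelled replicate 2 or 3 or WT replicate 1. Of 36 genes of the tricarboxylic acid cycle and pyruvate entry, 9 rose and 3 fell (33.3%, against 15.2%), with a median of 0.053, or 0.034 without WT replicate 4. Pdk4, the kinase that shuts pyruvate dehydrogenase, stood at 116, 117, 113 and 122 CPM in WT and 150.1, 157, 148 and 144 CPM in KO-labelled libraries, a log2 fold change of 0.36 ± 0.036 (SE; adjusted p = 1.7e-06). Pcx, pyruvate carboxylase, fell, at 118, 119.6, 119 and 116 CPM in WT and 103, 99.7, 95.8 and 96.4 CPM in KO-labelled libraries, a log2 fold change of -0.26 ± 0.034 (SE; adjusted p = 3.22e-05). In this list the offset fit called 4 higher and 1 lower, and 1 was lower without KO-labelled replicate 2 or 3 or WT replicate 2.

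Single genes of fuel use changed. Acsl1, which activates long-chain fatty acids, stood at 290.4, 287, 285 and 287 CPM in WT and 209.6, 207, 211 and 203 CPM in KO-labelled libraries, a log2 fold change of -0.47 ± 0.03 (SE; adjusted p = 4.09e-09), and Acaa2, of mitochondrial beta-oxidation, rose by 0.45, as did Cd36, a fatty acid carrier, by 0.40. Of 35 fatty acid genes 4 rose and 3 fell, of 31 glycolysis and glycogen genes 2 and 5, and of 33 cholesterol and lipid synthesis genes 2 and 3, with medians of 0.011, 0.004 and -0.009. The shares called were 20%, 22.6% and 15.2%, the last equal to the 15.2% of all genes. The offset fit called 4 fatty acid genes higher and 1 lower, and 0 lipid synthesis genes higher and 1 lower. The 5 glycolytic falls became 1 with the effective-length offset, and 3 without any 1 of the KO-labelled replicates or of WT replicates 2 and 3. Hk2 and Pfkl, early enzymes of glycolysis, fell, at -0.22 and -0.35. Ckb and Ckmt2, creatine kinases, rose by 0.41 and 0.32, and Ampd1, adenosine monophosphate deaminase, fell, at -0.48. The threshold was missed with the effective-length offset for Hk2, Pfkl and Ckmt2.

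In the Wnt list, 11 of 35 genes tested rose and 2 fell (37.1%, against 15.2% of all genes), with a median of 0.185. Those that rose included Lgr5, a receptor for R-spondins, by 0.82, Wnt11 by 0.59, and Axin2 and Nkd1, feedback inhibitors, by 0.43 and 0.51; the list's falls were Sost and the co-receptor Lrp5, at -0.33. Wnt11, Axin2 and Nkd1 were chosen after their values were seen. The count was 5 higher and 2 lower in DESeq2's test, which gave 1 of the called members no adjusted p, and with the effective-length offset, 6 higher without KO-labelled replicate 1, 2 or 3 or WT replicate 2, and 7 higher without WT replicate 1 or 3. Of 53 matrix genes, 8 rose and 11 fell (35.8%, and 4 and 5 with the effective-length offset), with a median of 0.02. That median was -0.049 in the fit of 19 libraries and 0.044 once trends with length and GC content were removed. Col4a1 and Col4a2, basement membrane collagens, rose by 0.44 and 0.56, and Thbs1, thrombospondin, fell, at -0.60. Of 22 immediate early genes, 6 fell and 0 rose (27.3%, against 7.27% of all genes lower), with a median of -0.114: Atf3 stood at 20.2, 20.1, 19.7 and 23.3 CPM in WT and 11.3, 12.9, 11.3 and 11.8 CPM in KO-labelled libraries, a log2 fold change of -0.83 ± 0.07 (SE; adjusted p = 1.9e-07), and Nr4a1 and Nr4a3, orphan nuclear receptors, fell, at -0.58 and -0.59. Without WT replicate 4, which stood above the other WT libraries in Atf3 and Nr4a3, the median of this list was -0.072 and 4 genes fell; 4 also fell without WT replicate 1, in DESeq2's test and with the effective-length offset. Calls were lost with the effective-length offset for Col4a1 and in 10 of 18 alternatives for Wnt11 and 9 of 18 alternatives for Nkd1.

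The counts in the remaining lists stand against 7.94% of all genes higher and 7.27% lower. Of 22 genes of the neuromuscular junction, 5 rose and 2 fell (over the 18 alternatives, 3 to 5 and 1 to 3), with a median of 0.037, and Colq, the collagen tail of acetylcholinesterase, stood at 101, 98.4, 100 and 92.4 CPM in WT and 125, 126, 130.4 and 125 CPM in KO-labelled libraries, a log2 fold change of 0.38 ± 0.035 (SE; adjusted p = 7.06e-07). Among 10 genes of creatine, adenylate and oxygen buffering, 3 rose and 2 fell (1 to 3 each way over the alternatives), with a median of 0.01. In the list of atrophy and FoxO genes, 2 of 20 rose and 3 fell (0 to 3 and 2 to 4 over the alternatives), with a median of 0.025, among them Fbxo32, a ubiquitin ligase of muscle atrophy, at 62.4, 58.6, 58.4 and 65.4 CPM in WT and 42, 50.9, 48.9 and 49.2 CPM in KO-labelled libraries, a log2 fold change of -0.36 ± 0.054 (SE; adjusted p = 0.000152). Of 30 CDK inhibitors and p53 targets, 3 rose and 5 fell (0 and 2 with the offset), with a median of 0.034, and Gadd45g, a growth arrest gene, fell, at -0.44. Of 33 genes of TGF-beta and BMP signalling, 5 rose and 1 fell, with a median of 0.037 (0.003 with no filter on low counts to 0.073 at a mean of at least 1 CPM); the rises numbered 2 with the offset, 3 in DESeq2's test and 9 once trends with length and GC content were removed, and dropped to 2 without KO-labelled replicate 2 or WT replicate 1 and to 3 without KO-labelled replicate 1 or WT replicate 3. Fst, follistatin, which binds myostatin and activins, rose by 0.23. Of 17 genes of the IGF system, 1 rose and 3 fell (1 with the offset, 5 in DESeq2's test and with library size alone), with a median of -0.038 (-0.079 in the fit of 19 libraries), and of 22 small heat shock proteins and chaperones, 3 rose and 3 fell (up to 5 and 4 over the alternatives), with a median of 0.002. Among 20 imprinted genes, 4 rose and 1 fell (3 to 6 and 1 to 3 over the alternatives), with a median of 0.049 that turned to -0.026 in the fit of 19 libraries and -0.043 with no filter on low counts, Ndn by 0.39 beside Peg10. Genes of DNA replication and mitosis changed in 4 of 32, 2 each way (0 to 4 higher and 0 to 2 lower over the alternatives). Their median was -0.028 (-0.109 in the fit of 19 libraries to 0.017 at a mean of at least 1 CPM). Cytosolic ribosomal proteins were lower in 1 of 82 and higher in 0, with a median of -0.001, although 21 were lower once trends with length and GC content were removed. Mitochondrial ribosomal proteins were higher in 5 of 78 and lower in 0, with a median of 0.063, with medians of 0.02 once trends with length and GC content were removed and 0.039 without KO-labelled replicate 1, and a count of 0 to 8 over the alternatives, and of 0 with the effective-length offset, without KO-labelled replicate 3 or without WT replicate 1.

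**Figure D2:**
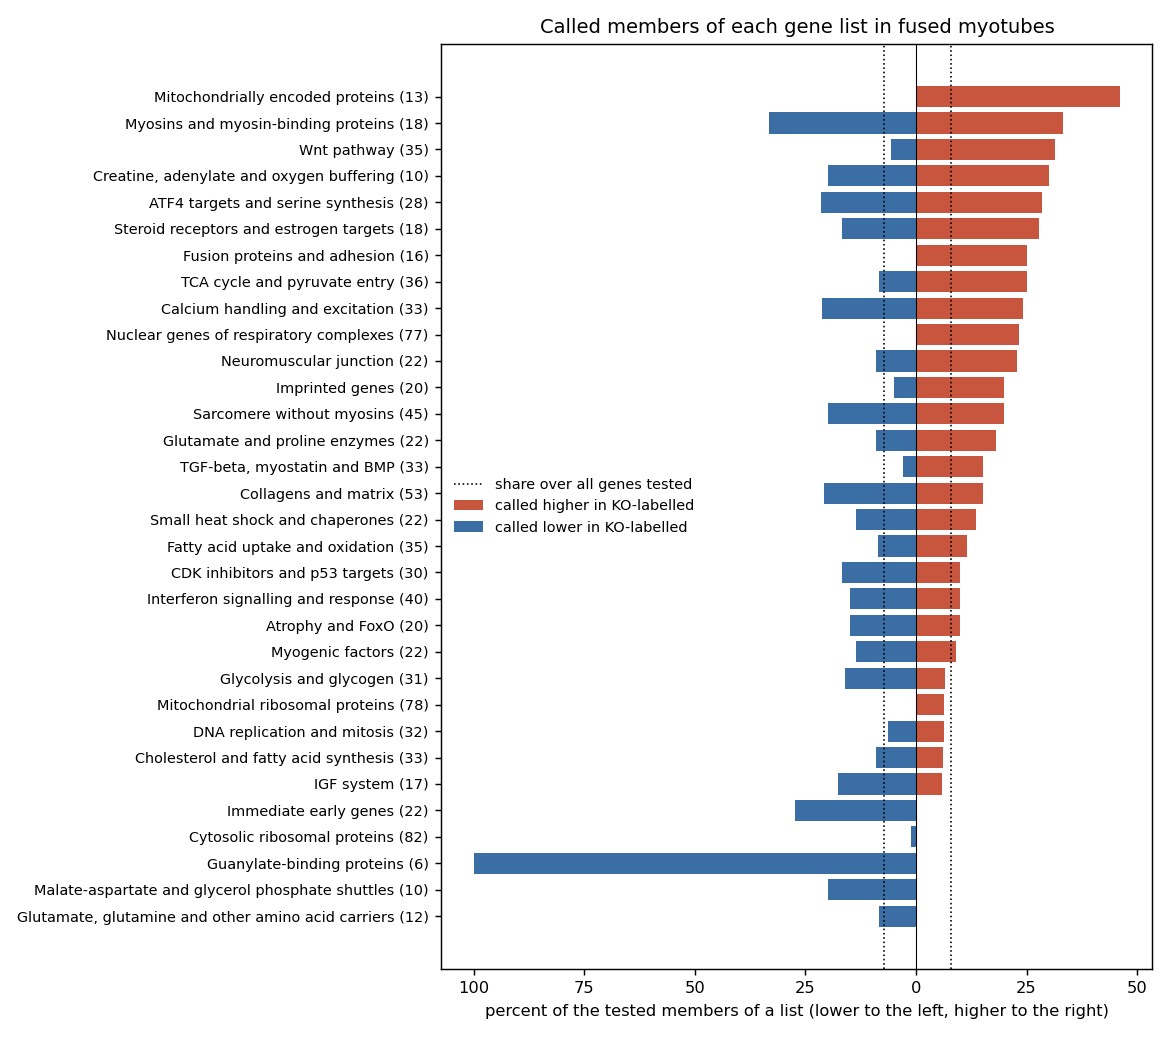
Percent of the tested members of each gene list (number tested in parentheses) that were called higher, to the right, or lower, to the left, in KO-labelled libraries. The dotted lines mark 7.94% higher and 7.27% lower over all genes tested; all 6 tested guanylate-binding proteins were lower, and 18 of 77 nuclear respiratory genes were higher with 0 lower.

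The 24 genes with the largest changes were set beside the earlier stages in 1 fit of 19 libraries, in which KO-labelled differentiated myotubes had 2 libraries and the 2 differences share the fused libraries. They were picked for their change in fused myotubes, so a smaller change elsewhere is partly built into the choice. Of 15123 genes tested, the change differed from that of differentiated myotubes in 2238 (14.8%) and from that of myoblasts in 1557 (10.3%). Of the 24, 14 and 10 differed. Gbp6 stood at -2.94 in myoblasts, -2.72 in differentiated and -4.32 in fused myotubes, so that fused minus differentiated was -1.60 ± 0.09 (edgeR adjusted p = 2.55e-12) and fused minus myoblasts -1.38 ± 0.1 (adjusted p = 7.62e-10). Htra3 fell by 0.78 in myoblasts, 0.39 in differentiated and 2.33 in fused myotubes, a difference of -1.94 ± 0.12 from differentiated myotubes (edgeR adjusted p = 1.63e-11). Nfib rose in fused myotubes alone among the 3 stages, at 0.16 and -0.25 before and 1.33 after fusion, and both differences passed (edgeR adjusted p = 5.3e-06 and 2.58e-05). The stages were compared without the effective-length offset. With that offset the change of Nfib in fused myotubes was 0.72 and was not called (edgeR adjusted p = 0.186). Without the effective-length offset, Greb1 fell at every stage, by 3.22, 3.44 and 2.87, with no difference called between stages (edgeR adjusted p = 0.349 and 0.459). Sohlh2, Dbh and Sost likewise showed no called difference.

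**Figure D3:**
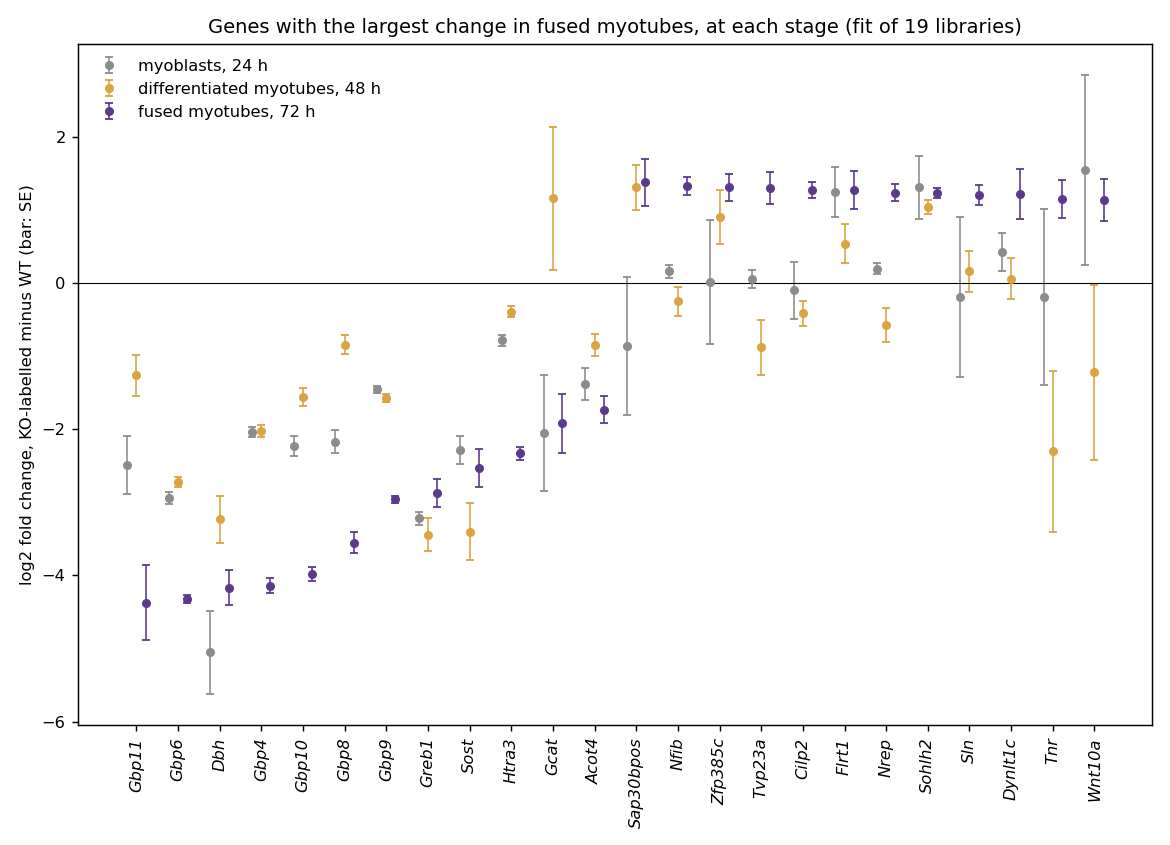
Log2 fold change of KO-labelled minus WT, with its SE as a bar, for the 24 genes with the largest change in fused myotubes, in myoblasts at 24 h, differentiated myotubes at 48 h and fused myotubes at 72 h, from 1 fit of 19 libraries. Gbp6 lies at -2.94, -2.72 and -4.32, and Nfib at 0.16, -0.25 and 1.33.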

How the data were processed

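Messenger RNA of 8 libraries of fused myotubes was compared, 4 labelled Glud1-deficient (KO-labelled) and 4 labelled WT. Per the labels' protocols, RNA came from a Qiagen RNeasy kit and libraries from an Illumina TruSeq mRNA kit. The submitters' processing notes name bcl2fastq 2.20, fastp 0.20.0, kallisto 0.46.1 and edgeR 3.36, and build GRCm38.p6. Per the file headers, the authors deposited for each transcript an estimated count, in which a read that matches several transcripts is shared between them, and a TPM value, scaled for length and depth. Whether counting used strand is not given in the sources used here. Among other called genes, Egfl7 and Stat3 overlap Agpat2 and Stat5a on the other strand, at 10.4 and 70.1 CPM on average, so their values are uncertain too. The deposited TPM values served to rank genes and to describe Glud1. They also weighted the transcripts of a gene in its effective length, length and GC content, which 2 of the alternative fits used.

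Estimated counts of 121018 of 121843 transcripts were summed over 35598 genes of GENCODE M21 (GRCm38) and rounded; the other 825 transcripts held 0.449% to 0.501% of a library. Genes were filtered with filterByExpr, scaled by TMM, and tested with edgeR 4.0.16 in R 4.3.3 (quasi-likelihood test, Benjamini-Hochberg adjustment over 12677 genes, called at 0.05). The SE is the size of the log2 fold change divided by the square root of the F statistic. Alternatives were 18, among them DESeq2 1.42.0. Replicate pairs differed beyond sampling noise (chi-square per degree of freedom 2.14 to 5.81). In simulated counts over 12567 genes for this comparison, of 50 genes planted at each of 1.25-, 1.5-, 2- and 4-fold, the fit recovered 30, 42, 50 and 50, with 5 false calls. The planted genes had at least 1 CPM and were a smaller share of all genes than the 15.2% called in the data. Counts were drawn independently, with the spread estimated in the main fit, so effects that genes of a library share were not simulated. Precision is limited by the spread between the 4 libraries of a group. For genes near 0 counts it is also limited by depth, 16168131 to 26665077 counts a library. Intervals from counts cover counting error only.

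The genes named are the 12 largest rises and falls among called genes without overlap, of at least 1 CPM in the higher group, the 8 most abundant called at 1.5-fold or more, up to 4 members of each list, the members of 7 lists in full, and neighbours within 1 Mb of Glud1 or the Gbp cluster. The comparison and the lists were chosen with earlier results of these data known. Genes named outside the rule are marked as chosen after their values were seen. No library was left out.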

Additional observations from a re-analysis of the deposited data

Results flagged for a closer look

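Among the genes described, 271 groups of 4 libraries were examined for 1 library far from the other 3 by Dixon's criterion at its 95% critical value, and 21 were picked out; chance alone picks about 1 in 20 groups. WT replicate 4 stood apart in Gbp4 at 42.2 CPM (others 33.4 to 34.2), Gbp8 at 21.2 CPM (others 15.9 to 16.7), Gbp9 at 283 CPM (others 246 to 248), Atf3 at 23.3 CPM (others 19.7 to 20.2), Nr4a3 at 25.9 CPM (others 19.3 to 20.1), Lrrc8b at 14.4 CPM (others 12.8 to 13), Ngfr at 2.02 CPM (others 2.39 to 2.47) and Irgm1 at 19.9 CPM (others 15.6 to 16.2). KO-labelled replicate 2 stood apart in Sost at 0.874 CPM (others 0.468 to 0.494) and Myh6 at 1.7 CPM (others 1.33 to 1.36). KO-labelled replicate 1 stood apart in Flrt1 at 1.99 CPM (others 1.53 to 1.61) and Peg10 at 276 CPM (others 288 to 289.9). KO-labelled replicate 3 stood apart in Myh7 at 228 CPM (others 245 to 248) and Myh1 at 15595 CPM (others 15817 to 15836). WT replicate 1 stood apart in Mrln at 7.44 CPM (others 9 to 9.04), Gadd45g at 28.2 CPM (others 30.1 to 30.4) and Nr4a1 at 15.4 CPM (others 13.2 to 13.5). KO-labelled replicate 4 stood apart in Psat1 at 284 CPM (others 307 to 309.5) and Neb at 759 CPM (others 539 to 574). WT replicate 3 stood apart in Pgr at 0.627 CPM (others 0.925 to 0.952). WT replicate 2 stood apart in Gm43302 at 0 CPM (others 8.62 to 9.97).

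The change between labels differed from that of an earlier stage in genes chosen for a large change in fused myotubes, by a test of the difference itself (edgeR, 19 libraries, adjusted over 15123 genes). The effective-length offset was not used in this test. Fused minus differentiated myotubes, on the log2 scale, was below 0 in Gbp11 -3.11 (adjusted p = 0.00179), Gbp6 -1.60 (adjusted p = 2.55e-12), Gbp4 -2.12 (adjusted p = 2.24e-10), Gbp10 -2.43 (adjusted p = 7.35e-10), Gbp8 -2.71 (adjusted p = 9e-10), Gbp9 -1.39 (adjusted p = 2.31e-12), Htra3 -1.94 (adjusted p = 1.63e-11) and Acot4 -0.88 (adjusted p = 0.011). It was above 0 in Nfib 1.58 (adjusted p = 2.58e-05), Tvp23a 2.18 (adjusted p = 0.000896), Cilp2 1.68 (adjusted p = 1.32e-06), Nrep 1.81 (adjusted p = 1.06e-05), Sln 1.06 (adjusted p = 0.0213) and Tnr 3.46 (adjusted p = 0.0314). Fused myotubes minus myoblasts was below 0 in Gbp6 -1.38 (adjusted p = 7.62e-10), Gbp4 -2.10 (adjusted p = 4.05e-11), Gbp10 -1.75 (adjusted p = 1.5e-06), Gbp8 -1.38 (adjusted p = 0.000302), Gbp9 -1.51 (adjusted p = 4.02e-14) and Htra3 -1.54 (adjusted p = 1.14e-09). That difference was above 0 in Nfib 1.17 (adjusted p = 5.3e-06), Tvp23a 1.24 (adjusted p = 0.00194), Cilp2 1.37 (adjusted p = 0.0336) and Nrep 1.04 (adjusted p = 1.15e-05).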

How the results depend on the processing

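With the effective-length offset, 701 genes were called (358 higher, 343 lower), and Glud1 gave -0.337 and was called lower. Genes of at least 2-fold numbered 51 in DESeq2's test and 160 with no filter on low counts, against 80. DESeq2 gave 23 of those 80, and 34 of the 1928, no adjusted p, and these are not counted as lost calls. Leaving out 1 library gave 1247 to 2022 calls, 566 to 1036 of them lower. The other alternatives left the count of calls within 1.5 times. Of 121 genes described as called, 80 were called in every alternative that could test them, 39 lost the call with the effective-length offset, and 0 reversed; the cause was not tested. Same-numbered libraries of the 2 groups had correlations of -0.128 to 0.0951 over 4 pairs, so the numbers are not treated as pairs. A fit with the replicate block called 1705 genes (884 higher, 821 lower), 1643 of them among the 1928, and not every library correlated best with its own number. The block moved these list counts by over 1.5 times: rises went from 11 to 7 in the Wnt list, 5 to 2 in mitochondrial ribosomal proteins and 2 to 1 in the FoxO list, and falls from 5 to 3 in glycolysis, 0 to 1 in mitochondrial DNA and in fusion genes, 1 to 2 in imprinted genes and 1 to 0 in cytosolic ribosomal proteins, while DNA replication went from 2 each way to 1. Depth limits genes near 0 counts, such as Gbp11 and Pgr.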
